A study of Mus musculus with 6 samples.

Results

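The genes of the mitochondrial respiratory chain and ATP synthase were followed in retinas lacking the transcription factor Onecut2. A gene was included where its symbol on the array began with Nduf, Uqcr, Atp5, Cox4, Cox5, Cox6, Cox7 or Cox8, or was Sdha, Sdhb, Sdhc or Sdhd. Of 90 such symbols with a probe set of their own, 87 were measured above the expression filter, out of 11065 genes measured in all. Ndufa11 and Ndufs6, above the filter only on probe sets shared with another symbol, were left out. They comprised 42 genes named for complex I, 4 for complex II, 8 for complex III, 16 for complex IV and 17 for complex V. The series holds 6 arrays of adult mouse retina, 3 from Onecut2-deficient mice (OC2-KO) and 3 from their wildtype littermates (OC2-WT), all hybridised with amplified, biotin-labelled total RNA. The OC2-KO animals carry null alleles throughout the body, so the OC2-KO retina is an adult tissue that developed without the factor. The labels give no treatment and no age beyond adult.

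The respiratory chain lies in the inner mitochondrial membrane. Complexes I and II pass electrons from NADH and succinate to ubiquinone, complex III passes them on to cytochrome c, and complex IV, cytochrome c oxidase, hands them to oxygen. Complexes I, III and IV pump protons, and complex V, the ATP synthase, uses the gradient to make ATP. Photoreceptors pack mitochondria into their inner segments and are among the heaviest users of ATP in the body. Most subunits are encoded in the nucleus, and several subunits of complex IV exist as pairs of genes, with a form found in most tissues and a form found in heart and skeletal muscle, testis or lung.

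Values are the log2 of probe set intensities that the authors scaled to a common mean on each array, so a difference shared by all transcripts cannot be seen. Each gene is represented by its brightest probe set, and levels of different probe sets are not compared. The array labels could not be checked with Onecut2 itself. Its probe set read 8.87, 8.58 and 8.69 on the OC2-KO arrays, against 6.61, 5.96 and 6.38 on the OC2-WT arrays, but these probes lie at the 3′ end of the gene. The study reports this rise from these same arrays and proposes that sequence left in the disrupted allele is its source. It also states, without showing data, that qPCR hardly detected the 5′ coding sequence and that staining found no OC2 protein. The source was not tested here. As the rise is known from these same arrays, the probe set is no independent check of the labels. Summed intensities of 4 horizontal cell markers were 2983 to 4531 on OC2-KO arrays, against 5848 to 6678 on OC2-WT arrays. These sums are mostly Calb1, at log2 levels of 11.30, 11.60 and 11.84 in OC2-KO and 12.27, 12.25 and 12.49 in OC2-WT. Prox1 and Onecut1 had lower means in OC2-KO but overlapped, and Lhx1, also lower, was below the filter. The rod genes Gnat1 and Sag had log2 levels above 14 on all 6 arrays. In Xist and a Y-linked transcript, both arrays numbered 1 had a male pattern and both numbered 2 a female pattern, while OC2-KO 3 was male and OC2-WT 3 female. Over all probe sets, arrays of the same number deviated together and are called pairs here. Littermates are named in the labels, but not whether each array is a separate animal. As both sexes occur within each genotype, the arrays of a genotype cannot all be from the same animal. The p-values measure the spread between arrays, which includes sex and may be partly technical. Sex was not balanced between the genotypes. The 6 arrays limit the precision of every value.

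Over the respiratory chain as a whole, 73 of the 87 genes had a higher mean in OC2-KO than in OC2-WT retinas and 14 a lower one, but the differences were small. The median log2 difference was 0.12, with quartiles at 0.04 and 0.22. Over all measured genes the median was 0.00, with quartiles at -0.12 and 0.11, and 48.8% of genes were higher in OC2-KO. Among brighter genes a majority was higher too. Of the 1024 other genes with a mean log2 level above 12, 63.7% were higher in OC2-KO, at a median difference of 0.04, whereas 55 of 62 chain genes above that level were higher, at a median of 0.13. After quantile normalisation of the arrays 67.8% of the chain genes were higher in OC2-KO, against 83.9% on the values as scaled by the authors, and their median difference was 0.07.

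No chain gene passed limma's test after Benjamini-Hochberg adjustment, and neither did any gene on the array (0% of 11065 genes). The smallest adjusted p among chain genes was 1.00, and that among all genes was 0.21. At an unadjusted limma p of 0.05, 3 chain genes passed, namely Cox6a2, Cox7a1 and Ndufaf6, all higher in OC2-KO. That is 3 of 87, where 0.985% of all genes passed. Cox6a2 was over the filter in OC2-KO only, which favours a difference, and among genes over the filter in both genotypes 2 of 86 chain genes passed, where 0.632% of all such genes did. The 3 OC2-KO arrays lay wholly above the 3 OC2-WT arrays for Cox7a1, Ndufaf6 and Ndufb1, against 1.95% of all genes, and wholly below them for Ndufaf7, against 1.83% of all genes. An exact permutation test of 3 against 3 arrays cannot give a two-sided p below 0.1. Only 6 of the 87 differences were larger than their own standard error, and 84 were under 0.5 in size on the log2 scale.

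By complex, the median log2 difference was 0.10 for complex I, 0.05 for complex II, 0.19 for complex III, 0.16 for complex IV and 0.18 for complex V. The numbers of genes higher in OC2-KO were 34 of 42, 3 of 4, 8 of 8, 12 of 16 and 16 of 17 in the same order.

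**Figure D1:**
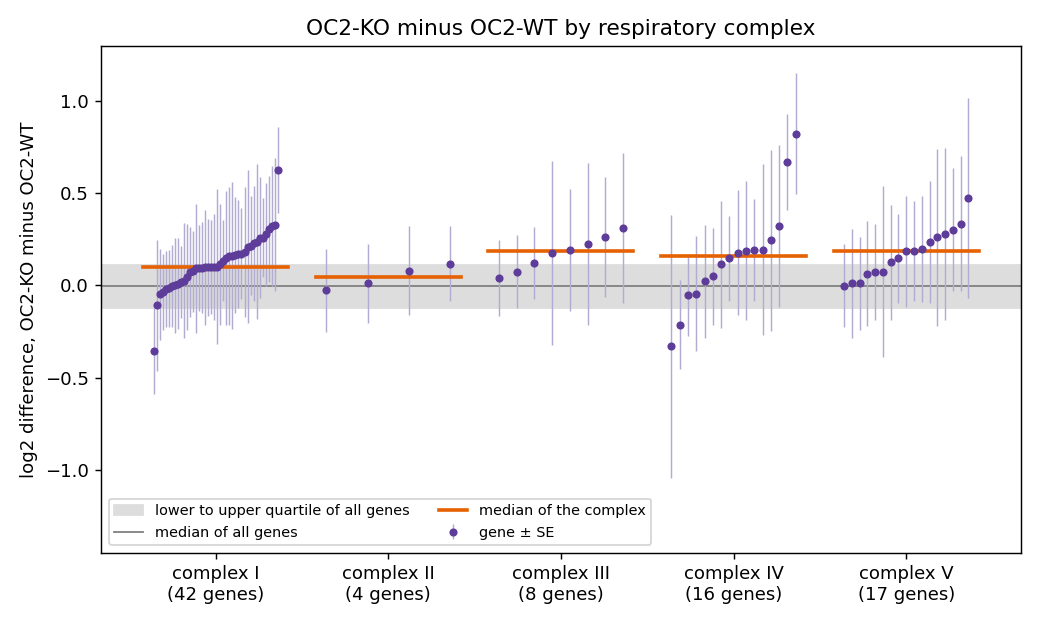
Log2 difference (OC2-KO minus OC2-WT) of each of the 87 genes by complex, with its standard error from limma; orange bars are medians of a complex and the grey band runs from the lower to the upper quartile of all 11065 genes. Most points sit between 0 and 0.3 with error bars that cross 0, and Ndufaf6, Cox7a1 and Cox6a2 stand highest.

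The excess of higher genes was seen in 1 of the 3 pairs of arrays. OC2-KO 1 exceeded OC2-WT 1 for 81 of the 87 genes, at a median log2 difference of 0.52. Over the chain genes, however, deviations from the genotype means correlated at only 0.08 in pair 1, against 0.85 in pair 2 and 0.78 in pair 3. OC2-KO 2 exceeded OC2-WT 2 for 24 genes, at a median of -0.04, and OC2-KO 3 exceeded OC2-WT 3 for 29 genes, at a median of -0.05. Over all genes these medians were 0.00, -0.01 and -0.01. With pair 1 left out, a choice made after the data were seen, 28 of 87 genes were higher in OC2-KO and the median was -0.05. All of complexes I to V showed the same split, with medians in pair 1 of 0.48, 0.17, 0.75, 0.61 and 0.59, and medians in pairs 2 and 3 at or below 0. Of the 87 genes, 11 (12.6%) were higher in OC2-KO in all 3 pairs, where 10.9% of all genes were. Ndufaf7 and Cox7c, 2 of the 87, were lower in all 3 pairs, where 12.1% of all genes were.

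**Figure D2:**
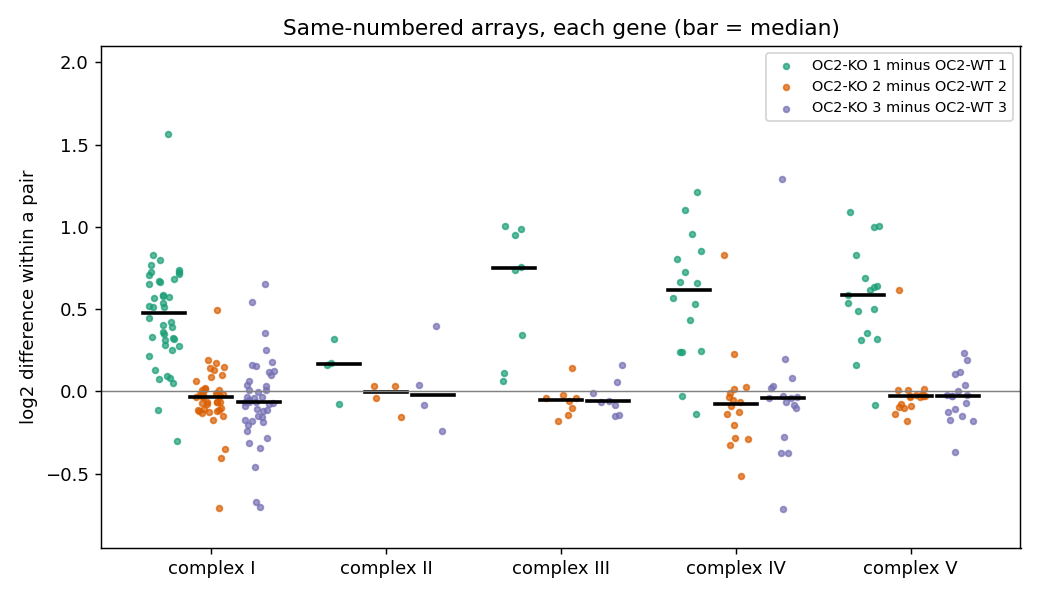
Log2 difference between the OC2-KO and OC2-WT array of the same number, for each gene and complex; bars are medians. The median of pair 1 lies above 0 in every complex, while the medians of pairs 2 and 3 lie at or just below 0.

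Leaving out single arrays moved the median over the chain widely. It was 0.01 without OC2-KO 1, 0.34 without OC2-KO 2 and 0.09 without OC2-KO 3. It was 0.08 without OC2-WT 1, 0.04 without OC2-WT 2 and 0.32 without OC2-WT 3. The number of genes higher in OC2-KO ran from 48, without OC2-KO 1, to 80, without OC2-KO 2.

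The 87 genes largely moved up and down together from array to array. Measured against each gene's OC2-WT mean, the median chain gene was at 0.38, -0.25 and 0.31 on the OC2-KO arrays and at -0.11, -0.21 and 0.36 on the OC2-WT arrays. OC2-KO 1, OC2-KO 3 and OC2-WT 3 were thus high, and OC2-KO 2, OC2-WT 1 and OC2-WT 2 low, in both genotypes. Across the 6 arrays, 55 genes correlated above 0.8 with the median of the 87, and the median correlation was 0.90, as a description, since that median includes the gene itself. Complex V was the most uniform, with 15 of 17 genes above 0.8. In complex II no gene exceeded 0.8 and the median correlation was -0.06. The range over the 6 arrays had a median of 0.83 over the 87 genes. It was narrowest for Ndufs1, the largest subunit of complex I, at 0.23, and widest for Cox8b, at 2.79.

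**Figure D3:**
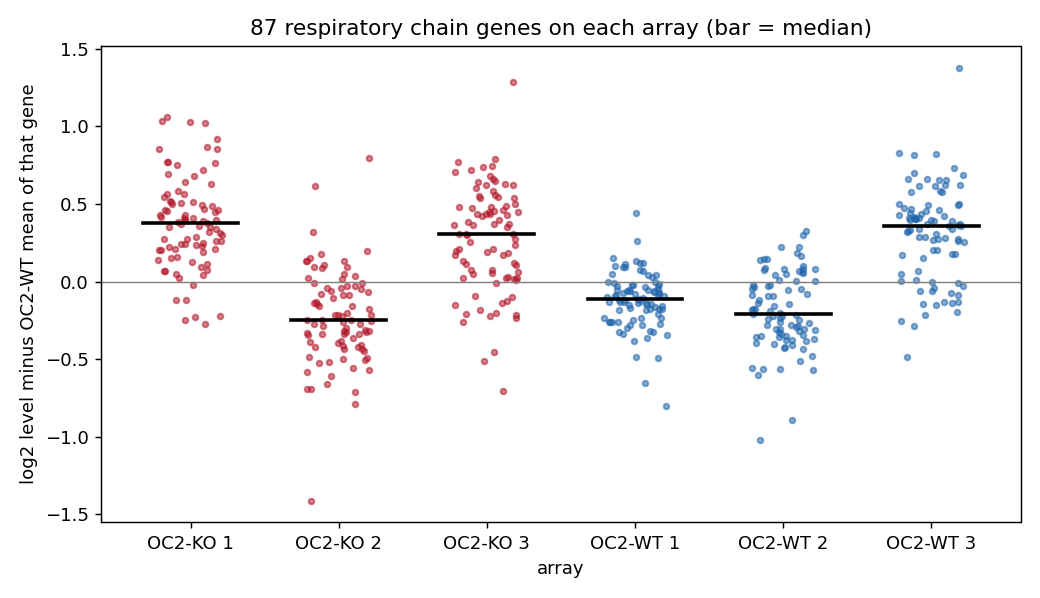
Log2 level of each of the 87 genes on each array, relative to that gene's OC2-WT mean; bars are medians over the genes. The medians are high on OC2-KO 1, OC2-KO 3 and OC2-WT 3 and low on OC2-KO 2, OC2-WT 1 and OC2-WT 2.

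In complex I, the clearest difference was in an assembly factor and not in a subunit. Ndufaf6, a mitochondrial protein needed to build the membrane arm of complex I, read 9.10, 9.25 and 8.89 in OC2-KO and 8.37, 8.76 and 8.24 in OC2-WT. All 3 OC2-KO arrays lay above all OC2-WT arrays, and the gene did not follow the shared array pattern (correlation -0.15). The log2 difference was 0.62 ± 0.23 (SE, n = 3 arrays each), or 1.54-fold, with a limma p of 0.0310 before and 1.00 after adjustment. The difference within pairs was 0.72, 0.50 and 0.65. Over the alternatives run for Ndufaf6, the difference ran from 0.44 with array weights to 0.78 without OC2-WT 2.

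Ndufaf7, a methyltransferase that takes part in building complex I, went the other way. It read 8.93, 9.11 and 8.49 in OC2-KO and 9.23, 9.18 and 9.19 in OC2-WT, a difference of -0.36 ± 0.23. The 3 OC2-WT arrays were nearly equal and all above the OC2-KO arrays, of which OC2-KO 3 was lowest. Limma gave it an unadjusted p of 0.168 and an adjusted p of 1.00. Ndufb1, a small accessory subunit of the membrane arm, read 7.99, 7.94 and 8.39 in OC2-KO and 7.89, 7.80 and 7.85 in OC2-WT. Its arrays did not overlap, but OC2-KO 3 alone stood clear of the others, and the difference was 0.26 ± 0.22. Ndufa4, grouped here by its symbol although the protein is now regarded as part of complex IV, differed by 0.16 ± 0.37, at 14.40 ± 0.61 in OC2-KO and 14.24 ± 0.45 in OC2-WT (mean ± SD). Its hypoxia-induced relative Ndufa4l2 was below the filter, at 7.17, 6.33 and 6.70 in OC2-KO and 5.96, 6.62 and 6.50 in OC2-WT, and these overlapped. So was the accessory subunit Ndufb4 on its only probe set of 1 symbol, at 6.56, 6.59 and 6.14 in OC2-KO and 6.57, 6.91 and 6.60 in OC2-WT. On probe sets shared with Ndufb4b and Ndufb4c, which were not used, Ndufb4 was above the filter. Their means were 13.00 and 12.55 in OC2-KO and 12.84 and 12.37 in OC2-WT, differences of 0.16 ± 0.35 and 0.17 ± 0.32.

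The other 38 genes of complex I had differences from -0.11, for Ndufs5, to 0.33, for Ndufa2. On a probe set shared with the symbol Ndufs5-ps, which was not used, Ndufs5 ran the other way, at 0.21 ± 0.35. The 8 Ndufaf assembly factors as a group had a median difference of 0.10, with 6 higher. The core subunits Ndufs1, Ndufs3, Ndufs7, Ndufs8, Ndufv1 and Ndufv2 of complex I had a median of 0.00, with 3 higher and 3 lower. This rests on the brightest probe sets. Ndufv1 was at -0.02 ± 0.21 on that one, but at 0.51 ± 0.39 and 0.43 ± 0.33 on its other probe sets. The other probe sets of Ndufv2 were at 0.24 and 0.09, and those of Ndufs8 ran from -0.16 to 0.30. Of 28 further subunits of complex I, 25 were higher, with a median of 0.15. The split into core and further subunits was made after the values were seen. On the brightest probe sets, 14 large or catalytic subunits of complexes I, II, III and V had a median difference of 0.03, and the 64 other subunits one of 0.17. Among the large subunits, Uqcrc2 was at 0.04 on its brightest probe set and at 0.25 on another. In pair 1 the medians of these groups were 0.32 and 0.59.

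Complex II, which also works in the citric acid cycle, was the flattest of the complexes. Sdhc and Sdhd, its membrane anchors, differed by 0.12 ± 0.20 and 0.08 ± 0.24. Sdha, the flavoprotein that oxidises succinate, and Sdhb, the iron-sulphur subunit, differed by 0.01 ± 0.21 and -0.03 ± 0.22. Sdha read 13.07, 12.71 and 12.65 in OC2-KO and 12.91, 12.75 and 12.74 in OC2-WT. The arrays of all 4 genes overlapped, and none ranged over more than 0.57 across the 6 arrays.

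All 8 genes taken for complex III by symbol had a higher mean in OC2-KO, and none passed the unadjusted test. Cyc1, the cytochrome c1 of complex III, lies outside the symbol rule and was lower. Its mean was 12.56 in OC2-KO and 12.64 in OC2-WT, a difference of -0.08 ± 0.21. Uqcrq and Uqcr10, small subunits with no redox centre, had the largest differences, at 0.31 ± 0.41 and 0.26 ± 0.33. Uqcrq read 13.30, 12.13 and 13.15 in OC2-KO and 12.31, 12.17 and 13.17 in OC2-WT. OC2-KO 2 was the lowest of the 6 arrays, and only in pair 1 was OC2-KO the higher. Uqcrfs1, the Rieske iron-sulphur protein, was steadier and was the only gene of complex III higher in OC2-KO in all 3 pairs, by 0.06, 0.14 and 0.16. It read 12.10, 12.12 and 11.96 in OC2-KO and 12.03, 11.98 and 11.81 in OC2-WT, and its difference of 0.12 ± 0.20 was within the standard error. Uqcrb, a ubiquinone-binding subunit, read 15.25 ± 0.78 in OC2-KO and 15.08 ± 0.73 in OC2-WT (mean ± SD).

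In complex IV, Cox7a1 and Cox6a2 had an unadjusted p under 0.05, and Cox6a2 was over the filter in OC2-KO only. Cox7a1, the muscle form of subunit VIIa, read 8.19, 7.78 and 7.53 in OC2-KO and 7.08, 6.95 and 7.45 in OC2-WT. All OC2-KO arrays lay above all OC2-WT arrays, although OC2-KO 3 exceeded OC2-WT 3 by only 0.08. The log2 difference was 0.67 ± 0.26, or 1.59-fold, and it ran from 0.46 without pair 1 to 0.97 without pair 3. Limma gave an unadjusted p of 0.0354 and an adjusted p of 1.00. Cox7a1 is among the genes that the study listed as higher in OC2-KO on these same arrays, so its direction here is not independent evidence.

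Cox6a2, the muscle form of subunit VIa, read 7.52, 6.63 and 7.77 in OC2-KO and 6.31, 6.67 and 6.48 in OC2-WT. OC2-KO 1 and OC2-KO 3 were high, and OC2-KO 2 lay among the OC2-WT arrays. The difference was 0.82 ± 0.33, or 1.77-fold, with an unadjusted limma p of 0.0395 and an adjusted p of 1.00. It ran from 0.59 without pair 3 to 1.25 without pair 2. Its OC2-WT mean of 6.49 is below the filter of 7, so this gene was measured only because OC2-KO was above it, and such a gene had to differ. No other gene of the 87 was in that position. A dimmer probe set of Cox6a2, below the filter in both genotypes, ran the other way, at 4.10, 1.43 and 1.87 in OC2-KO and 3.68, 2.51 and 3.29 in OC2-WT.

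The partner forms of these subunits found in most tissues did not separate the genotypes. Cox7a2 read 15.20, 13.79 and 15.19 in OC2-KO and 14.35, 13.88 and 15.21 in OC2-WT, a difference of 0.25 ± 0.49. Cox6a1 read 15.23, 14.24 and 15.55 in OC2-KO and 14.43, 14.38 and 15.63 in OC2-WT, a difference of 0.19 ± 0.46. Both followed the shared array pattern, with OC2-KO 2, OC2-WT 1 and OC2-WT 2 low.

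**Figure D4:**
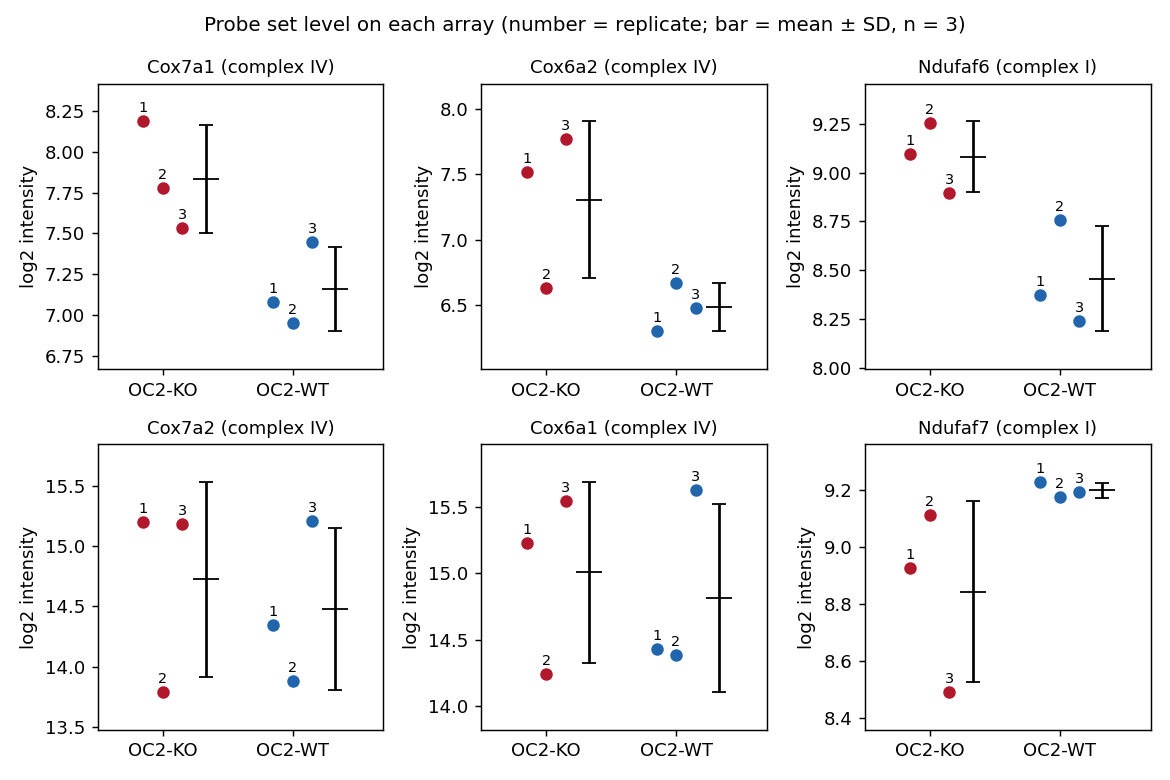
Log2 intensity of 6 genes on each array, with replicate numbers beside the points and the mean ± SD (n = 3) to their right; each panel has its own vertical scale. Cox7a1 and Ndufaf6 separate the genotypes upwards and Ndufaf7 downwards, OC2-KO 2 of Cox6a2 lies with OC2-WT, and Cox7a2 and Cox6a1 overlap.

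Cox8b, the muscle form of subunit VIII in mouse, read 7.77, 6.60 and 8.68 in OC2-KO and 7.53, 7.12 and 9.39 in OC2-WT, a difference of -0.33 ± 0.71. Both arrays of pair 3 were the highest of their genotype, and the difference was 0.36 without OC2-WT 3. Its counterpart Cox8a differed by 0.15 ± 0.23. Skeletal muscle markers gave summed intensities of 730, 363 and 466 on the OC2-KO arrays and 567, 374 and 516 on the OC2-WT arrays, with 2 of 8 markers above the filter and 6 of 8 higher in OC2-KO. The 2 above the filter went opposite ways, with log2 levels in OC2-KO and OC2-WT of 7.42 and 7.04 for Acta1 and 7.25 and 7.55 for Mylpf. Of those below the filter, Tnnt3 and Tnnc2 were at 2.75 and 3.79 in OC2-KO and 2.27 and 3.44 in OC2-WT. Myh1, also below the filter, was lower in OC2-KO, at 3.97 against 4.73. Markers of smooth muscle and pericytes summed to 1136 to 2056 on OC2-KO arrays and 1099 to 1690 on OC2-WT arrays, with 6 of 7 higher in OC2-KO. The part of such cells in the values of Cox7a1 and Cox6a2 was not tested. In whole retina, fewer cells of a type and less RNA per cell cannot be told apart.

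The remaining isoform pairs differed by less than their standard errors. Cox4i1, the form of subunit IV found in most tissues, differed by 0.18 ± 0.34, and Cox4i2, the form known from lung and from hypoxia, by -0.04 ± 0.31. Cox6b1, found in most tissues, differed by 0.19 ± 0.38, and Cox6b2, known from testis, by 0.19 ± 0.28. Cox7b2, known from testis, was below the filter, at 5.25, 4.54 and 1.79 in OC2-KO and 5.11, 6.29 and 1.29 in OC2-WT. Cox7c, a small subunit found in most tissues, had only a dim probe set above the filter. There it read 8.42, 8.74 and 8.14 in OC2-KO and 8.56, 8.87 and 8.52 in OC2-WT. It was lower in OC2-KO in all 3 pairs, by a mean difference of -0.21 ± 0.24, and it ran against the shared array pattern (correlation -0.77). Whether this probe set reports the main Cox7c transcript was not tested. The other 5 genes of complex IV differed by -0.05, for Cox8c, to 0.32, for Cox6c.

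In the ATP synthase, 16 of 17 genes had a higher mean in OC2-KO, and Atp5d, at a difference of 0.00, was the exception. The largest difference was 0.48, in Atp5md. Atp5k (subunit e), a small subunit of the membrane sector, read 14.33, 13.13 and 13.96 in OC2-KO and 13.33, 13.16 and 13.92 in OC2-WT, a difference of 0.34 ± 0.37. Only OC2-KO 1 stood away from its pair partner. Atp5l (subunit g) differed by 0.30 ± 0.33.

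Atp5md, a small protein also known as DAPIT, read 12.53, 11.06 and 12.24 in OC2-KO and 11.91, 10.45 and 12.05 in OC2-WT. The genotypes overlapped, yet OC2-KO was higher in all 3 pairs, by 0.62, 0.62 and 0.19. The difference of 0.48 ± 0.54 had a limma p of 0.410, which was 0.0355 with the replicate block and 1.00 after adjustment with that block. The 3 genes that encode the same c-ring protein, Atp5g1, Atp5g2 and Atp5g3, differed by 0.20 ± 0.29, 0.06 ± 0.29 and 0.08 ± 0.47, and each was higher in OC2-KO in pair 1 only. The other 11 genes of complex V differed by 0.00, for Atp5d, to 0.28, for Atp5e.

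Where a gene had more than 1 probe set above the filter, the probe sets mostly ran the same way. Of 45 such genes, 33 had all their probe sets higher in OC2-KO, 1 had all lower and 11 had both. Sdhc was of the last kind, with a further probe set at -0.09, and so was Sdhd, with a dimmer one at -0.61.

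Other genes of energy metabolism were set beside the chain. Of 18 chain genes outside the symbol rule, 11 were higher in OC2-KO, at a median of 0.02. Among the 18 were Cycs, which is cytochrome c, and Cyc1, the cytochrome c1 of complex III. Cycs read 13.28 in OC2-KO and 13.13 in OC2-WT on average, a difference of 0.15 ± 0.42. The mitochondrially encoded ND5 differed by 0.34 ± 0.34. Of 35 further assembly factors, 21 were higher, at a median of 0.06, with Pet100 at 0.53 ± 0.37 and Sco2, a copper chaperone of complex IV, at 0.40 ± 0.29. Of 13 citric acid cycle genes, 7 were higher, at a median of 0.01. Glycolysis, with 10 of 14 higher, had a median of 0.11, and the carriers and pores of the mitochondrial membranes, with 10 of 12 higher, one of 0.09. Of 16 regulators of mitochondrial gene expression, 6 were higher, at a median of -0.03, with Ppargc1a, a coactivator of mitochondrial biogenesis, at 0.10 ± 0.20 and Nrf1 at -0.02 ± 0.32. No gene of these lists passed the unadjusted limma test.

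Genes of unrelated function shared the array pattern of the chain. The 43 ribosomal protein genes measured (symbols beginning with Rpl or Rps, a list added after the data were seen) had medians of 0.51, -0.39 and 0.35 on the OC2-KO arrays and -0.12, -0.38 and 0.50 on the OC2-WT arrays. Of these, 37 were higher in OC2-KO, at a median difference of 0.14. The 76 genes of the mitochondrial ribosome had 44 higher and a median difference of 0.01. Rod markers, all 6 measured being higher, summed to 274663, 122327 and 365155 on the OC2-KO arrays. On the OC2-WT arrays they summed to 173875, 133828 and 431204, so that the same 3 arrays were high. Pde6a departed from this, with its highest level on OC2-WT 1, at 12.55, and 11.69 on OC2-WT 3. Retinal pigment epithelium markers summed to 12112, 19706 and 60979 in OC2-KO and 20853, 21864 and 74688 in OC2-WT. Lens markers summed to 23484, 33431 and 23924 in OC2-KO and 39943, 18784 and 3712 in OC2-WT. The difference in log2 level between 3′ and 5′ probe sets of Actb, a sign of RNA length, was 1.41, 0.74 and 3.39 on the OC2-KO arrays and 1.11, 0.71 and 2.95 on the OC2-WT arrays, and was thus highest in pair 3. The part of rod, pigment epithelium or lens content, or of RNA length, in the values of the chain was not tested.

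**Figure D5:**
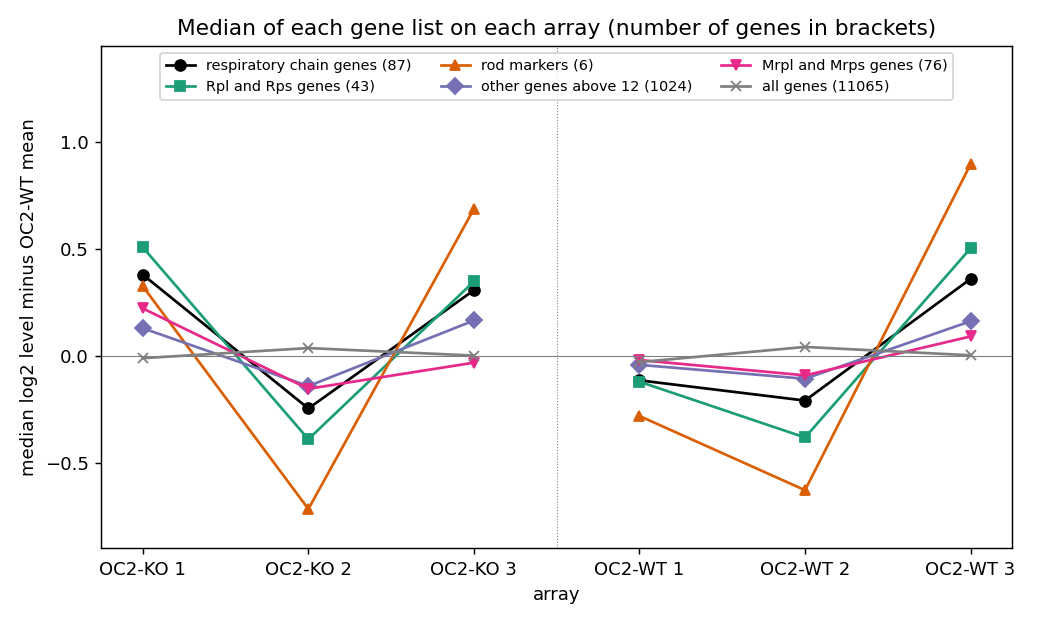
Median log2 level of 6 gene lists on each array, each gene taken relative to its OC2-WT mean. The chain genes, the Rpl and Rps genes and the rod markers are high on OC2-KO 1, OC2-KO 3 and OC2-WT 3, while the median of all genes runs from -0.03 to 0.04.

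Promoters were looked at because the chain genes varied together. RefSeq promoter windows (GRCm38.p6, 250 bases before to 50 after the start) were at hand for 72 of the 87 genes. Each was searched on both strands for short cores bound by factors known to act on nuclear genes of mitochondria. GCGCATGC, the core for Nrf1, was present in 11 genes, or 15.3%, against 6.30% of measured genes and 3.05% of all genes with a window. CCGGAAG, the ETS core to which Gabpa binds, was present in 19 genes (26.4%), against 20.2% of measured genes and 9.93% of all. AAGATGGC, the YY1 core, was present in 10 genes (13.9%), against 5.46% and 3.19%. AAGGTCA, the core for oestrogen-related receptors, was present in 7 genes (9.72%), against 3.64% and 5.38%. A match is a description of the letters only. The first pair of windows below shows the isoforms of subunit VIIa, of which only the muscle form separated the genotypes. The second shows Cox6a1 and Atp5k, which followed the shared pattern. Cox7a2, without a match, followed it too (correlation 0.98), and Ndufaf4, with Nrf1 cores, did not (correlation -0.61). Whether matches go with the pattern was not tested. Capitals mark matches to the cores. In Cox6a1 and Atp5k the Nrf1 core is read on both strands of 1 stretch, so these matches overlap.
Cox7a1, chr7:30183921-30184220, plus strand, no match: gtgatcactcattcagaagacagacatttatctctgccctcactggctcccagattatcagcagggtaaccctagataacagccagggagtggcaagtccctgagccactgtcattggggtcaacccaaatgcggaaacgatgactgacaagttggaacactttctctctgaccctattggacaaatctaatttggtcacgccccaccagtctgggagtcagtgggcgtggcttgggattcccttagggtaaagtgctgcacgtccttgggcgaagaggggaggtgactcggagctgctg
Cox7a2, chr9:79759804-79760103, minus strand, no match: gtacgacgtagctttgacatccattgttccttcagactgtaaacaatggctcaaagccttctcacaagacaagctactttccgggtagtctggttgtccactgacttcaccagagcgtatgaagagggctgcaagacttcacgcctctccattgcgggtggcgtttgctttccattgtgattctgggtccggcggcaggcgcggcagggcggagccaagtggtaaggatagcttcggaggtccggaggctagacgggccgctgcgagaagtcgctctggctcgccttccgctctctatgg
Cox6a1, chr5:115348909-115349208, minus strand, Nrf1 and ETS cores: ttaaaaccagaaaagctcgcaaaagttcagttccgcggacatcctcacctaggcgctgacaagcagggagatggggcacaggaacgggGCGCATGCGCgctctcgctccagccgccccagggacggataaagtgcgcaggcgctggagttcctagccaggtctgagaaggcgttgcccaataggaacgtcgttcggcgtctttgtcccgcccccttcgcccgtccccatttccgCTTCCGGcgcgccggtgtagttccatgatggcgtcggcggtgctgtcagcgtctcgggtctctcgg
Atp5k, chr5:108434350-108434649, minus strand, Nrf1, ETS and oestrogen-related receptor cores: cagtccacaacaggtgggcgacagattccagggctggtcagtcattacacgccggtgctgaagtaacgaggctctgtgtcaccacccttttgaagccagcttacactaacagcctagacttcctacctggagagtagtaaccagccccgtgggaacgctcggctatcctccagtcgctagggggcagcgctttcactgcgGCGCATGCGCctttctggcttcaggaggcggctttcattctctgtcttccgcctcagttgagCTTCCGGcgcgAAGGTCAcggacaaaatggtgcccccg
The window of Cox7a1 held 7 CpG dinucleotides and that of Cox7a2 held 20, where the median was 20 over windows of the chain genes and 21 over those of measured genes.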

How the data were processed

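Adult retinas were profiled on Affymetrix mouse genome arrays, 1 per sample. Each deposited array holds intensities on a linear scale for 45101 probe sets, normalised by the authors with MAS5 (version not given in the sources used here) to a 2% trimmed mean of 500 per array. Groups came from the genotype in the labels. Gene names came from the platform annotation, and 10 probe sets of the chain with several symbols were not used. Cox7b was not analysed here. After log2 transformation, and without 64 control probe sets, the 21176 probe sets with a mean above 7 in either genotype were kept, as in the study's methods. Genotypes were compared over these in limma 3.58.1 (lmFit, eBayes; R 4.3.3), two-sided, with Benjamini-Hochberg adjustment and 4 residual degrees of freedom. This fit was tested on simulated data.

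Named genes were those with an unadjusted p under 0.05 or without overlap, the 3 with the smallest p, the brightest and the dimmest of each complex, and the isoform pairs and c-ring genes. The genes, lists and tests were chosen with earlier results of these data known. The split into catalytic and other subunits, the ribosomal lists, the level of 12 and the promoters shown were chosen after seeing values. Replicate numbers were checked as pairs, by correlating deviations from the genotype means. Over all probe sets these correlated at 0.576, 0.590 and 0.585 within numbers and at -0.429 to -0.135 between them. Over the chain genes alone they correlated at 0.079, 0.851 and 0.776 within numbers 1, 2 and 3. There OC2-KO 1 correlated at 0.284 with OC2-WT 3. The numbers thus pair the arrays over all probe sets, but number 1 does not do so over the chain genes. The labels do not say what a number marks. Alternatives were no filter, a filter at 8, quantile normalisation, median centring, an intensity trend, array weights, a floor at 6, the replicate block, the methods' t-test, a t-test of unequal variances, the omission of each array or pair, probe sets averaged per gene, plain probe set names only, and no assembly factors.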

Additional observations from a re-analysis of the deposited data

How the results depend on the processing

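No gene of the chain passed the adjusted test under any alternative. At an unadjusted p of 0.05, 209 of 21176 probe sets and 3 of 87 chain genes passed. The probe sets passing numbered 1144 of 45037 with no filter, 127 of 16157 with a filter at 8 and 436 of 21176 with array weights. With the replicate block they numbered 887 of 21176. With single arrays left out they numbered 209 to 560, the highest being 560 of 21389 without OC2-KO 2. The chain genes passing numbered 0 with no filter and without pair 1, and 1 each with a filter at 8, an intensity trend, the unequal-variance test, without pair 2 and without pair 3. They numbered 4 of 87 with the replicate block, a share close to that of all probe sets with the block. The smallest adjusted p of a chain gene with the block was 1.00. With single arrays left out, 0 to 2 chain genes passed. Genes whose genotypes did not overlap numbered 4, but 2 without assembly factors, 9 without pair 3, 12 without pair 1, 18 without pair 2 and 5 to 17 with single arrays left out. Fewer arrays overlap less often by construction. The share of chain genes was 10.3% without pair 3, 13.8% without pair 1 and 20.7% without pair 2, against 18.4%, 20.7% and 22.3% of all genes, which stood at 3.78% on all arrays. With OC2-KO 2 left out it was 19.5%, against 16.6% of all genes. Genes higher in OC2-KO numbered 73, but 28 without pair 1 and 48 to 80 with single arrays left out. The median over the chain ran from -0.05 to 0.34 over the alternatives. The medians of complexes I, III, IV and V stayed above 0 with any single array left out, and that of complex II ran from -0.06 to 0.11. The causes were not tested. Leaving out pairs 1 and 2 was added after seeing the data. Of 29 named genes, 20 changed sign under at least 1 alternative. Among them Sdhc moved to -0.02 without pair 3. The replicate block left every difference itself unchanged, and of the named genes it moved only Atp5md across an unadjusted p of 0.05. With 3 arrays per genotype and dim probe sets such as Cox6a2, the fold of a gene near its background is uncertain.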
